A study of Mus musculus with 2 samples.

Results

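The genes described here are the amino acid transporter families SLC1, SLC3, SLC6, SLC7, SLC36, SLC38 and SLC43, taken as every array probe that is not a control and whose gene name starts with Slc1a, Slc3a, Slc6a, Slc7a, Slc36a, Slc38a or Slc43a. They are read by 79 probes standing for 62 of the 36315 genes or transcripts named on the array. The RNA came from lineage-negative erythroid progenitors of C57BL/6 mouse fetal livers at stage E14.5. The cells had been given ESlncRNA, the long noncoding RNA under study, or only the vector, and GFP-positive cells were collected by sorting. Each of 2 two-colour arrays carried ESlncRNA RNA in Cy5 (red) beside vector RNA in Cy3 (green), so the dyes were never swapped and any dye effect of a probe enters both ratios alike. The labels give neither the promoter of the vector nor whether the 2 replicates came from separate animals or cultures, and 120 probes with 10 spots differed between arrays by a median of 0.0240, where spot noise alone gives 0.0247. The spread between arrays may therefore be technical. Some names in these families belong to carriers of other cargo: the rule also takes in carriers of serotonin, dopamine, creatine and purine bases, and Slc7a6os, a gene beside Slc7a6 that is not a transporter.

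Cells bring in amino acids through carriers that differ in cargo and in what drives them. SLC1, SLC6 and SLC38 carriers mostly use the sodium gradient, SLC36 carriers use protons, and the light chains of SLC7 exchange one amino acid for another after joining a heavy chain of SLC3. Erythroblasts need glycine for the first step of heme synthesis, taken up by GlyT1 (Slc6a9), and leucine for globin synthesis, for which LAT3 (Slc43a1) is known in these cells. The comparison asks how expression differs between cells with ESlncRNA and cells with the vector.

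All ratios below are log2 of ESlncRNA over vector, as the mean ± SD of the 2 arrays. A gene is read at its brightest probe. The p-values are from limma, fitted over all probes and Benjamini-Hochberg adjusted, and 0.05 was the threshold. Signals are log2 of background-corrected, normalized intensity, where the lowest signal well above background was 6.15 to 6.28, and signals of different probes cannot be compared with each other. Each array read 45.6% and 44.4% of spots well above background in the ESlncRNA channel, and 52.1% and 49.1% in the vector channel.

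Of the 62 genes, 34 could be read, meaning that on each array a probe stood well above background in the ESlncRNA or the vector channel, and 32 of them were so in both channels on both arrays. The 2 others, Slc6a12 and Slc6a3, were read only in the vector channel, so they entered the test through the group where they are high. The 28 genes left out held 35 probes, with mean ratios between -0.44 and 0.15. They include Slc3a1, the heavy chain of the renal cystine carrier, and Slc1a1 and Slc1a2, glutamate carriers of kidney and brain. Of these 28 genes, 24 were never well above background in any channel, while Slc1a6, Slc36a2 and Slc7a2 were so in the vector channel of 1 array.

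The genes with the largest changes measured in both channels were each read by 1 probe of 60 bases. The first 30 bases are shown to identify each probe, and their match to transcripts was not checked. In which exon or untranslated stretch each lies was not determined here. On mm9, the build of the array files, the probes lie at chr14:55341137-55341196 (minus strand) for Slc7a8, chr11:75387219-75387278 (plus) for Slc43a2, chr14:54989166-54989225 (minus) for Slc7a7 and chr15:8584236-8584295 (minus) for Slc1a3.
Slc7a8: tatttcttttggattttttaatgtatggcg
Slc43a2: ggttttctcttgttttatcatgattctttt
Slc7a7: ctctttcctttacaagggccaacaatgctc
Slc1a3: gtttacccggtgtgatattttttatactaa

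The carriers did not move one way. Of the 34 genes read, 12 rose (35.3%), 16 fell (47.1%) and 6 did not pass. Over all 19870 genes tested, 26.3% rose and 36.8% fell, 63.0% in either direction. Calls were common at small sizes, so a second rule asked for a call with at least 1.5-fold in 1 direction on both arrays. Then 4 genes were higher (11.8%, against 3.24% of all genes) and 6 were lower (17.6%, against 13.5%). At 2-fold on both arrays 2 were higher, against 0.604% of all genes, and 3 lower, against 8.10%. The median ratio of the 34 genes was -0.09, and that of all genes -0.03. The arrays gave the same sign for 33 of the 34, and differed by at most 0.23.

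**Figure D1:**
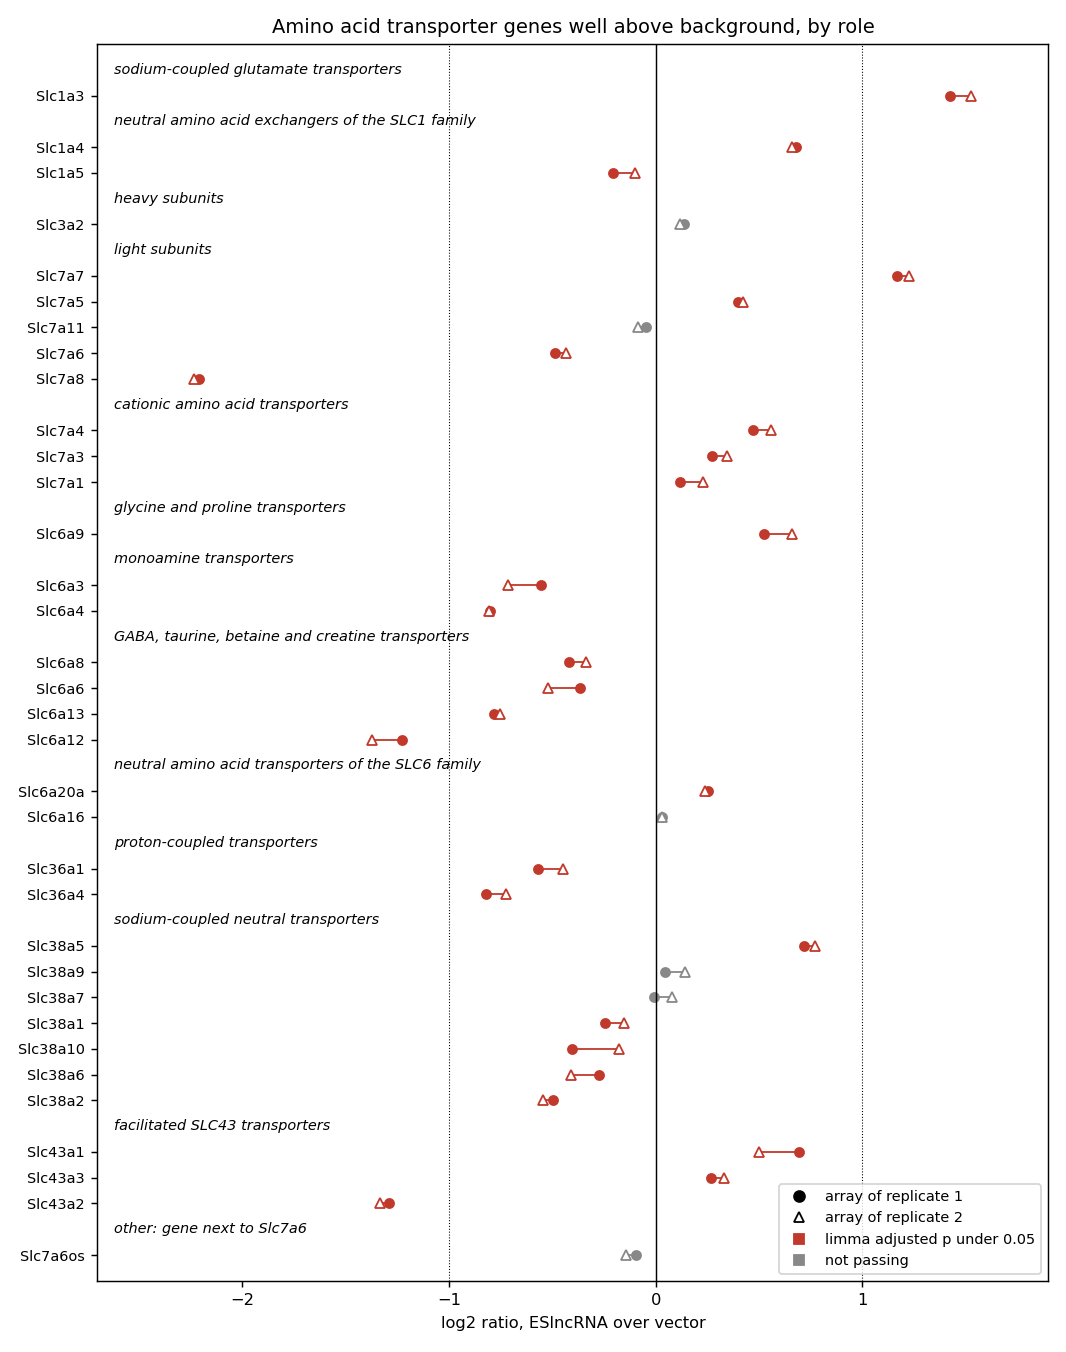
Log2 ratio of ESlncRNA over vector for each of the 34 genes read, grouped by role, with a filled circle for the array of replicate 1 and an open triangle for replicate 2. Red genes passed the threshold and grey ones did not; dotted lines mark a 2-fold change, and Slc7a8, at -2.22, lies farthest from 0.

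The leucine carriers split by gene. Slc7a8 encodes LAT2, a light chain that exchanges neutral amino acids. Its signal was 6.94 and 6.97 in ESlncRNA cells, against 9.15 and 9.20 in vector cells. Both ESlncRNA values lay far under both vector values, near the edge of detection. LAT2 RNA fell 4.66-fold (-2.22 ± 0.016, adjusted p = 2.07e-07, limma), the lowest ratio of the 34 genes, on a probe with 10 spots per array. Its ratio was -2.79 at an offset of 0 and -2.77 with processed signals.

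Slc43a2 encodes LAT4, a carrier that lets neutral amino acids pass without exchange. It had signals of 8.22 and 8.14 in ESlncRNA cells, against 9.50 and 9.47 in vector cells, and the groups did not overlap. It fell 2.48-fold (-1.31 ± 0.032, adjusted p = 1.97e-06, limma). Its relative Slc43a1, which encodes LAT3, went the other way, with 12.51 and 12.35 in ESlncRNA cells, against 11.82 and 11.85 in vector cells. LAT3 RNA rose 1.51-fold (0.60 ± 0.14, adjusted p = 0.000267, limma). The third gene of the family, Slc43a3, which carries purine bases, rose by less (0.30 ± 0.045), a call lost with no replicate block (adjusted p = 0.0711, limma).

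Slc7a5 encodes LAT1, the light chain for large neutral amino acids in growing cells. Its signal was 11.65 and 11.54 in ESlncRNA cells, against 11.25 and 11.12 in vector cells, without overlap. It rose 1.33-fold (0.41 ± 0.019, adjusted p = 0.000467, limma), and its second probe rose too, by 0.23 ± 0.046. The heavy chain that LAT1 and LAT2 share, Slc3a2 or CD98, did not pass, with 14.66 and 14.79 in ESlncRNA cells, against 14.52 and 14.67 in vector cells (0.13 ± 0.014, adjusted p = 0.0573, limma). The Slc3a2 signals overlap between the groups, although within each array the ESlncRNA value was the higher. Slc3a2 passed, as higher, with processed signals (0.23), with median centring (0.96), with probes of each gene averaged and where both channels had to be above background.

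Among the other light chains, Slc7a7 encodes y+LAT1, which sends out cationic amino acids in exchange for neutral ones. It had 11.77 and 11.68 in ESlncRNA cells, against 10.61 and 10.46 in vector cells. It rose 2.29-fold (1.19 ± 0.042, adjusted p = 3.26e-06, limma), and the groups lay apart. Its close relative Slc7a6, y+LAT2, fell (-0.46 ± 0.038, adjusted p = 0.000297, limma; it did not pass with median centring, at -0.14), while the neighbouring Slc7a6os did not pass (-0.12 ± 0.035, adjusted p = 0.072, limma). Slc7a11, the cystine and glutamate exchanger xCT that feeds glutathione synthesis, did not pass, with signals of 6.66 and 6.65 in ESlncRNA cells, against 6.70 and 6.74 in vector cells (-0.07 ± 0.030, adjusted p = 0.275, limma). That is close to the limit of detection in both groups. Of the 10 light chain genes on the array, 5 were read, and 2 rose, 2 fell and 1 did not pass. The shares over all genes were 26.3% higher and 36.8% lower.

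The carriers of cationic amino acids, which bring arginine and lysine into the cell, were a small group that rose in all 3 genes read of 5 on the array, where 26.3% of all genes rose. Slc7a1, the widely expressed CAT1, had 13.75 and 13.54 in ESlncRNA cells, against 13.63 and 13.31 in vector cells. The ratio was above 0 on both arrays although the signals overlap, and the change was small (0.17 ± 0.077, adjusted p = 0.0276, limma). The call of Slc7a1, and with it the count of 3, was lost without background subtraction (adjusted p = 0.0627, limma), at an offset of 0 (0.0945), with the authors' deposited values (0.0946) and with no replicate block (0.312). Slc7a3 rose by 0.31 ± 0.052 at a dim signal, and by 0.68 at an offset of 0 and 1.20 with processed signals. Slc7a4, a relative of these carriers, rose by 0.52 ± 0.059 on 1 of its 2 probes, and the other was not well above background.

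The largest rise was that of a glutamate carrier. Slc1a3 encodes GLAST (EAAT1), best known from glia. Its signal was 9.26 and 9.28 in ESlncRNA cells, against 7.84 and 7.75 in vector cells, with the groups well apart. It rose 2.78-fold (1.47 ± 0.073, adjusted p = 1.58e-06, limma) and was the only one of the 5 sodium-coupled glutamate carriers that was read. Slc1a4, or ASCT1, an exchanger of alanine, serine and cysteine, rose 1.59-fold (0.67 ± 0.011, adjusted p = 4.52e-05, limma), with 10.78 and 10.70 in ESlncRNA cells, against 10.099 and 10.04 in vector cells.

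Its glutamine-carrying relative Slc1a5, or ASCT2, barely moved. It had 13.16 and 13.15 in ESlncRNA cells, against 13.37 and 13.26 in vector cells, and fell by 0.15 ± 0.074 (adjusted p = 0.0406, limma). With median centring in place of loess its ratio was 0.55, so the direction of ASCT2 rests on the normalization. Its call was also lost without background subtraction, at an offset of 0, with processed signals, with no filter, with the authors' deposited values and with no replicate block. Its second probe gave -0.15 ± 0.15 and did not pass (adjusted p = 0.0802, limma).

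**Figure D2:**
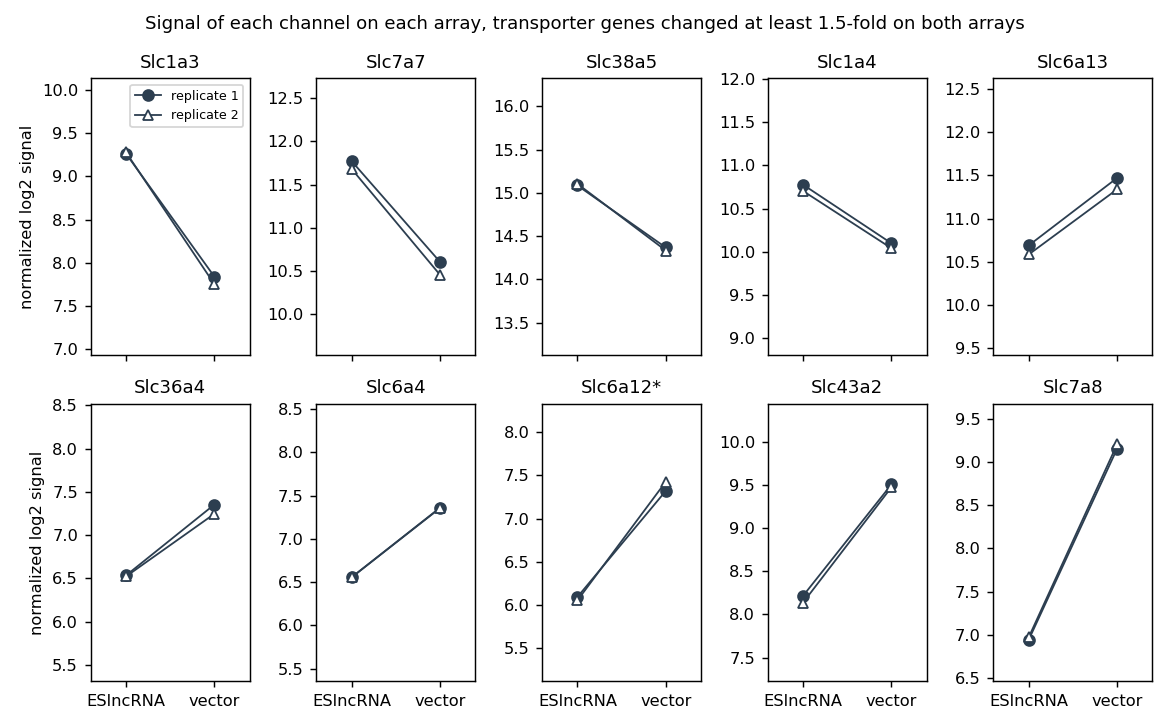
Normalized log2 signal in ESlncRNA (left of each panel) and vector cells (right) for the 10 genes that passed with at least 1.5-fold on both arrays, with 1 line per array. Slc1a3, Slc7a7, Slc38a5 and Slc1a4 lay higher in ESlncRNA cells and the other 6 lower; the asterisk marks Slc6a12, not well above background in ESlncRNA cells, and each panel spans 3.2 log2 units.

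The glycine carrier rose. Slc6a9 (GlyT1) had 12.36 and 12.03 in ESlncRNA cells, against 11.83 and 11.37 in vector cells. The lower ESlncRNA value still lay above the higher vector value. The rise was 1.51-fold (0.59 ± 0.095, adjusted p = 0.000156, limma). A second probe gave 0.58 ± 0.065, but it is not a separate measurement, since the probes at chr4:117541842-117541901 and chr4:117541851-117541910 (mm9, plus strand) share 51 of 60 bases. The first 30 bases of each are shown for that reason, with the 21 bases that appear in both stretches in capitals. The lower-case end of the second stretch is also part of the first probe, beyond the bases shown.
Slc6a9 first probe: gcccagtgtGTGCAGAACTAGGGTTTTAAA
Slc6a9 second probe: GTGCAGAACTAGGGTTTTAAAgtccgtagg

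The remaining SLC6 genes were mostly lower. Carriers of GABA, taurine, betaine and creatine fell in 4 of 4 genes read, of 6 on the array, where 36.8% of all genes fell. One of the 4, Slc6a12, was read only because of its signal in vector cells. Slc6a13, the GABA carrier GAT2, had 10.69 and 10.59 in ESlncRNA cells, against 11.47 and 11.34 in vector cells, and fell 1.70-fold (-0.77 ± 0.019, adjusted p = 2.43e-05, limma). Slc6a12, the betaine and GABA carrier BGT1, lies beside Slc6a13 on chromosome 6 and had 6.09 and 6.05 in ESlncRNA cells, against 7.32 and 7.43 in vector cells. It was not well above background in ESlncRNA cells, so its fall was at least 2.20-fold (-1.30 ± 0.10, adjusted p = 4.06e-06, limma), and its ratio was -2.52 at an offset of 0 and -3.30 with processed signals. For a value written "at least", the dim signal was raised where it lay under the lowest signal well above background of its channel. Some signals not well above background lie over that level. In ESlncRNA cells of replicate 1, Slc38a3 was at 6.44, where the level was 6.23. Such bounds are therefore approximate, and they are open to dye bias.

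The taurine carrier Slc6a6 fell by 0.44 ± 0.11, though with median centring it was at 0.14, or -0.20 relative to the median of all genes. The creatine carrier Slc6a8 fell by 0.38 ± 0.056, but did not pass with processed signals (-0.15) or with median centring (-0.03). The serotonin carrier Slc6a4, also known from platelets and mast cells, had 6.56 and 6.56 in ESlncRNA cells, against 7.36 and 7.36 in vector cells. It fell 1.74-fold (-0.80 ± 0.0042, adjusted p = 1.88e-05, limma), and was at -1.35 at an offset of 0 and -1.58 with processed signals. The dopamine carrier Slc6a3, dim in ESlncRNA cells, was at least 1.54-fold lower (-0.64 ± 0.11, or -1.36 both at an offset of 0 and with processed signals). Slc6a20a, a carrier of proline and other imino acids, rose slightly (0.25 ± 0.0074), and Slc6a16, an orphan carrier, did not pass (0.03), though it did with processed signals (0.41).

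The SLC38 carriers of glutamine and other neutral amino acids went both ways, with 1 of 7 genes read higher, 4 lower and 2 not passing. Of all genes tested, 26.3% rose and 36.8% fell. Slc38a5 (SNAT5), a carrier of glutamine and glycine, had 15.09 and 15.11 in ESlncRNA cells, against 14.37 and 14.33 in vector cells. The groups did not overlap, and it rose 1.68-fold (0.74 ± 0.038, adjusted p = 3.05e-05, limma). Slc38a2 (SNAT2), the carrier that starved cells induce, had 12.48 and 12.46 in ESlncRNA cells, against 12.97 and 13.01 in vector cells. It fell 1.43-fold (-0.52 ± 0.035, adjusted p = 0.000166, limma), but with median centring its ratio was 0.13, or -0.21 relative to the median of all genes.

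Slc38a6 and Slc38a10 fell by 0.34 ± 0.094 and 0.29 ± 0.16. With median centring Slc38a10 was at 0.05, or -0.29 relative to the median of all genes. Slc38a6 did not pass with processed signals (-0.32) or median centring (-0.16), nor Slc38a10 with processed signals (-0.04), at an offset of 0 or with the authors' deposited values. Slc38a7, a lysosomal glutamine carrier, did not pass (0.04 ± 0.062, adjusted p = 0.568, limma), but did, as higher, with processed signals (0.35) and median centring (0.40). Slc38a9, the lysosomal arginine sensor of the growth kinase complex mTORC1, had 9.53 and 9.67 in ESlncRNA cells, against 9.49 and 9.52 in vector cells. It did not pass (0.09 ± 0.069, adjusted p = 0.161, limma), while 1 of its 2 other probes rose (0.32 ± 0.040, adjusted p = 0.00164, limma). The same 2 settings made Slc38a9 pass as higher (0.38 and 0.52). The proton-coupled carriers of lysosomes and the cell surface fell in both genes read of 4 on the array, where 36.8% of all genes fell. Slc36a4 had 6.53 and 6.52 in ESlncRNA cells, against 7.35 and 7.25 in vector cells, and was 1.71-fold lower (-0.77 ± 0.068, adjusted p = 3.25e-05, limma). The ratio of Slc36a4 was -1.32 at an offset of 0 and -1.30 with processed signals, and its second probe was not well above background. Slc36a1 fell by 0.51 ± 0.086 on its brightest probe and was at 0.08 ± 0.11 on a second one that did not pass.

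Slc38a1 (SNAT1), a glutamine carrier, shows how much the probe decides. Its brightest probe, at chr15:96406793-96406852, fell by 0.20 ± 0.066 (adjusted p = 0.0149, limma). The next, at chr15:96402753-96402812, fell by 0.35 ± 0.032 (adjusted p = 0.00101, limma), and the dimmest, at chr15:96405187-96405246, rose by 0.17 ± 0.14 (adjusted p = 0.0482, limma). It was the only one of the 6 genes with several probes read whose called probes disagreed in sign, and with median centring its brightest probe was at 0.57. The call of that probe was lost with processed signals (-0.04), at an offset of 0, with the authors' deposited values and with no replicate block. The first 30 bases of the 3 probes, all on the minus strand of mm9, are shown in that order because the readouts differ.
Slc38a1 brightest: tggaaacacgatcaacagttgtcttcactt
Slc38a1 middle: gaatctatgcagcagaggctcactttagga
Slc38a1 dimmest: tgaccacctttgtagctctgtttgtactgt

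**Figure D3:**
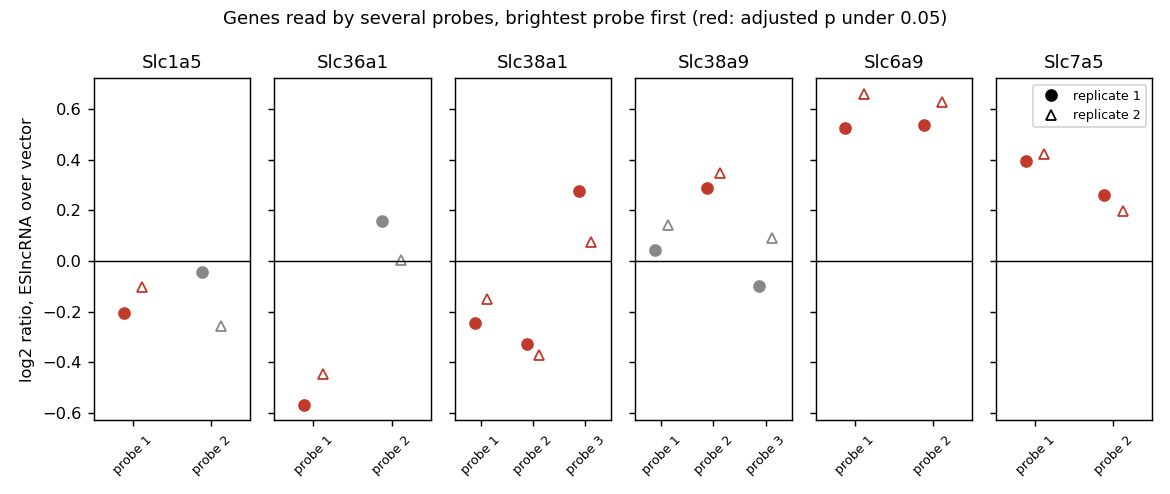
Log2 ratio of ESlncRNA over vector for each probe read of the 6 genes with several such probes, brightest first, with filled circles for replicate 1 and open triangles for replicate 2 (red, adjusted p under 0.05). Both Slc6a9 probes and both Slc7a5 probes rose, whereas the Slc38a1 probes fall on both sides of 0.

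The size of these changes depends on how the dyes are balanced. Loess removes any trend of the ratio with brightness, whereas median centring keeps it and shifted the ratios of bright probes up, by a median of 0.82 for signals of 13 and above and 0.08 for those under 7. With median centring the median of all genes moved to 0.34 and that of the 34 transporter genes to 0.38. The fall of Slc7a8 (-1.92) and Slc43a2 (-0.94) and the rise of Slc1a3 (1.81), Slc7a7 (1.73), Slc38a5 (1.59), Slc43a1 (1.20) and Slc6a9 (1.18) kept their signs there. With the scanner software's processed signals these values were -2.77, -1.22, 2.15, 1.36, 0.75, 0.60 and 0.74, with a median of all genes of 0.11.

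**Figure D4:**
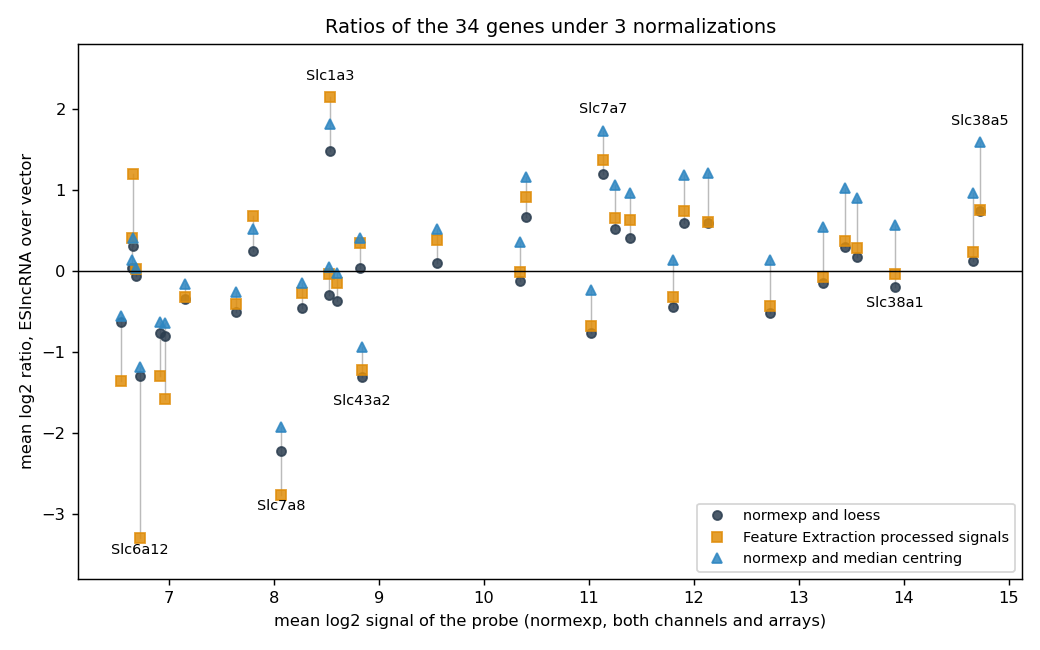
Mean log2 ratio of ESlncRNA over vector for the 34 genes against the mean log2 signal of their probes, under 3 normalizations joined by a grey line for each gene. The upward shift of median centring grows with signal, and Slc38a1 lies at -0.20 with loess and 0.57 with median centring, whereas Slc7a8, Slc43a2, Slc7a7, Slc1a3 and Slc38a5 stay on their side of 0.

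Markers of several blood cell types moved in the same RNA. In bulk RNA, fewer cells of a type and less RNA per cell cannot be told apart. Of 9 erythroid markers read, among them Klf1, Gata1 and Tfrc, 8 rose and 1 did not pass (median 0.66), and all 9 were above background in both groups on at least 1 array. The one not passing was Alas2, whose arrays gave -0.02 and 0.77. All 10 granulocyte markers fell (median -4.49), as did all 8 megakaryocyte markers (-1.78). So did the 9 macrophage markers read of 10 on the array (-2.24), and the 5 mast cell and basophil markers read of 6 (-3.06). Of the endothelial markers 5 of 6 fell (-1.02), and of the hepatocyte markers 6 of 7 (-0.69). Of 3 lymphocyte markers read of 6 on the array, 2 fell and 1 rose. Over all genes tested, 26.3% rose and 36.8% fell. In ESlncRNA cells all 10 granulocyte and 8 megakaryocyte markers were still above background on at least 1 array, while 3 of 9 macrophage, 1 of 5 mast cell and basophil, 3 of 6 endothelial, 2 of 7 hepatocyte and 1 of 3 lymphocyte markers were not well above it on either array. Markers not well above background in ESlncRNA cells were read only through the vector channel, where they are high. The part of the non-erythroid markers in the falls of Slc7a8, Slc43a2, Slc6a4, Slc6a12 and Slc6a13 was not tested. Nor was that of the erythroid markers in the rises of Slc6a9 and Slc43a1.

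Promoters were searched for letters known to bind factors of this setting, since carriers rose and fell side by side: AGATAA or TGATAA for GATA factors, CCNCNCCC for KLF1, and TGATGNAA for ATF4, the factor of amino acid stress. Both strands of the 250 bases before each RefSeq start site (GRCm38.p6) were read, and no motif holds another, although the CACCC letters also match GC-rich boxes of other factors. For the 34 genes read, 26 had entries, with 41 start sites. The KLF1 letters stood in 14 of 15 windows (93.3%) of genes that rose, 15 of 20 (75.0%) of genes that fell, and 45.9% of all 32851 windows. GATA letters stood in 3 of 15, 3 of 20 and 16.6% of these sets. ATF4 letters stood in 2 of 15, 0 of 20 and 3.45%. Over all 41 windows of the genes read, the KLF1 letters stood in 31 (75.6%). They were found in 8 of 8 genes with entries that rose and in 10 of 12 that fell. By gene, GATA letters were found in 1 of 8 genes that rose and 1 of 12 that fell, and ATF4 letters in 1 of 8 that rose. For the genes that rose this was Slc7a7 each time, which supplies 5 of the 15 windows. Start sites of 1 gene overlap, so the windows are not independent, and a match is not a bound site. The shares of all windows also cover genes not read on these arrays. No share over all genes read was computed, so the sets are unlike in that respect.

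The windows of 2 genes that rose and 2 that fell are shown so that the matches (capitals) can be compared. For Slc7a7, 1 of 5 start sites is shown, chosen because it holds all 3 motifs, and for Slc43a2 the first of 2. They lie at chr14:54417703-54417952 (minus strand) for Slc7a7, chr2:84840073-84840322 (plus) for Slc43a1, chr14:54781887-54782136 (minus) for Slc7a8 and chr11:75531444-75531693 (plus) for Slc43a2. The Slc7a7 window holds TGATGCAA and AGATAA besides 3 CACCC matches, and the other 3 hold CACCC matches alone, so this motif is found on both sides.
Slc7a7: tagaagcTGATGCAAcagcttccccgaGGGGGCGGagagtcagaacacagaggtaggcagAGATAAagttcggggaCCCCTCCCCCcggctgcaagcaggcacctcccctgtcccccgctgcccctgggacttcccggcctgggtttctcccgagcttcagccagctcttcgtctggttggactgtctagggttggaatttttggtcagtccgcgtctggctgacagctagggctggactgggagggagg
Slc43a1: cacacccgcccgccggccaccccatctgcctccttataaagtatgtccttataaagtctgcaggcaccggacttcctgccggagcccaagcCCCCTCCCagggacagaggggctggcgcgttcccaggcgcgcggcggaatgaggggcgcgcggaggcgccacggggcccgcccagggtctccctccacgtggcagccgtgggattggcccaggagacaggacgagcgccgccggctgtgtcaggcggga
Slc7a8: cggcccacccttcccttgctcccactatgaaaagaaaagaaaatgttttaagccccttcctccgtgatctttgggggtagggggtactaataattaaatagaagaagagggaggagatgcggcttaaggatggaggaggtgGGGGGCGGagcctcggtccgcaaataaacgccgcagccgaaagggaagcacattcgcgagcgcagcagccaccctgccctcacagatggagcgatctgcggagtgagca
Slc43a2: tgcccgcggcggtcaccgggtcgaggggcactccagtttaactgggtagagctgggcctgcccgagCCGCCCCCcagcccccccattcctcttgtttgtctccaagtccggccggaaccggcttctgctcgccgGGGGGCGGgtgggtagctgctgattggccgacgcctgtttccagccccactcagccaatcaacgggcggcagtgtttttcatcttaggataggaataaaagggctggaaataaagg

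Of 9 carriers of amino acids and peptides outside these families that were read, of 13 on the array, 7 fell and 2 rose (median -0.24, against -0.03 for all genes), where 36.8% of all genes fell and 26.3% rose. Of the 7, Slc15a3 and Slc32a1 were read only in the vector channel, so they entered through the group where they are high. With median centring 4 of the 7 lay above 0, namely Slc15a4 (0.43), Slc17a5 (0.30), Ctns (0.29) and Mfsd12 (0.30). The median of all genes was 0.34 in that setting, and only Slc15a4 of these 4 lay above it. Slc66a1, the lysosomal exporter of cationic amino acids, rose 1.36-fold (0.44 ± 0.049), and Slc15a3, a peptide carrier of immune cells, was at least 1.81-fold lower. Slc32a1, the vesicular GABA carrier, was at least 1.37-fold lower. Mfsd12, which brings cysteine into lysosomes and melanosomes, fell by 0.43 ± 0.021. Median centring turned that sign, though Mfsd12 stayed under the median of all genes. With median centring the median of these 9 was 0.30, against 0.34 for all genes.

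The genes that sense amino acids for mTORC1 also went both ways, with 8 of 34 read higher, 12 lower and 14 not passing (median -0.04). These shares lie near those of all genes, 26.3% higher and 36.8% lower, so the counts do not set the list apart. Rragb, among the 12 lower, was read only in the vector channel, where it is high. Castor2, the partner of the cytosolic arginine sensor, fell 3.26-fold (-1.71 ± 0.24), with ratios of -1.88 and -1.53 on the 2 arrays. Lamtor4, a subunit of the lysosomal Ragulator scaffold, fell 2.67-fold (-1.42 ± 0.0013), and Deptor, an inhibitor bound to mTOR, 1.77-fold (-0.83 ± 0.087). Wdr59, of the GATOR2 complex, rose 1.81-fold (0.86 ± 0.048). These 4 genes kept their signs with median centring and with processed signals. The list's median was 0.52 with median centring, against 0.34 for all genes.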

How the data were processed

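Each of the 2 arrays gave intensities of ESlncRNA (Cy5) and vector (Cy3) RNA. Per the file headers, Feature Extraction 10.1.1.1 read the spots, with probe positions on mm9, and both arrays lay on 1 slide scanned once. The deposited intensities used here are the mean signal and median local background of each spot, uncorrected. Per the file headers, the deposited processed intensities had the background removed and the dyes balanced by the software; they were an alternative. The deposited log10 ratio served to check direction (r = 0.986 and 0.992 with the processed ratio). The authors' deposited log2 values, made with limma per the submitters' processing notes, correlated at r = 0.99996 with loess ratios of unsubtracted signals, which gave their scale and direction.

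Background was corrected with normexp (offset 50) and arrays were normalized by loess in limma 3.58.1 (R 4.3.3), with control and outlier spots at weight 0. Of 55681 probes, 26790 were kept, with at least 0.5 of their spots well above background in a channel on both arrays. A model with an intercept was fitted (1 residual and 5.27 prior degrees of freedom). Of the 79 probes, 78 had accessions giving the same symbol in RefSeq. The p-values rest only on differences between these 2 arrays, with the variance of each probe drawn toward that of all probes. The number of arrays limits the precision. The steps were tested on simulated data in which few probes changed, as many up as down. That test does not cover calls as common, or large changes as lopsided, as in these arrays.

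The genes, lists and alternatives were chosen with earlier results of these data known. Values per channel were given for transporter genes called at least 1.5-fold on both arrays and for 9 chosen carriers. These carriers were Slc6a9, Slc7a5, Slc3a2, Slc43a1, Slc1a5, Slc7a1, Slc7a11, Slc38a2 and Slc38a9. Of each of the other 2 gene lists, the 4 genes of smallest p were given by ratio or fold, without signals. Other genes are given by ratio only, and 1 gene that was not read on both arrays is not reported here.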

Additional observations from a re-analysis of the deposited data

How the results depend on the processing

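Of the 28 called transporter genes, 18 kept their sign and call under all 9 alternatives with a test, except that Slc6a12 and Slc6a3 drop out where both channels must be above background. With median centring the p-values of these genes followed the size of the ratio alone, whatever the spread between arrays. Calls in that setting act as a cutoff on the ratio. Among the 18 were Slc7a8, Slc43a2, Slc1a3, Slc7a7, Slc38a5, Slc43a1 and Slc6a9. The other 10 lost the call or turned, and 262 of 304 gene values kept both sign and side of the threshold. Median centring gave 18 genes higher and 8 lower, 6 at least 2-fold higher, and a median of 0.38. It turned Slc1a5 (0.55), Slc38a1 (0.57), Slc38a10 (0.048), Slc38a2 (0.13), Slc6a6 (0.14), Slc7a11 (0.038) and Slc7a6os (0.36). The median of all genes was then 0.34. Relative to it, Slc38a10 (-0.29), Slc38a2 (-0.21), Slc6a6 (-0.20) and Slc7a11 (-0.30) were still lower. Slc1a5 (0.21), Slc38a1 (0.23) and Slc7a6os (0.022) were not. Over all genes median centring called 12511 higher and 3633 lower, against 5223 and 7305 with loess. Of all genes, 4706 were lower with processed signals and 3446 higher with no replicate block. Of calls over all genes, 77.5% were higher with median centring, against 41.7% with loess and 59.2% with processed signals. Processed signals gave a median of 0.0064, 6 genes at least 2-fold lower, and Slc7a11 at 0.023. An offset of 0 gave a median of -0.12 and 6 genes at least 2-fold lower. The median was -0.14 without background subtraction and with the deposited log2 values, where Slc38a7 was at -0.011 and -0.01. Keeping every gene whatever its signal gave -0.0095, and the median was -0.017 with both channels above background. Leaving out 1 array gave medians of -0.094 and -0.070, with no test. The channels of an array pair the groups; with no replicate block, 10 genes rose and 14 fell. A slide block was not run, since both arrays lay on 1 slide. The cause of these shifts was not tested. Dim signals limit Slc7a3, Slc7a11, Slc6a3, Slc6a4, Slc6a12, Slc6a16 and Slc36a4, and no array reversed the dyes. The size of the fall of Slc7a8 is limited too, by its dim signal in ESlncRNA cells.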

Other observations

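Of the genes not read on both arrays, Slc36a2, a proton-coupled carrier of glycine and proline, was well above background in the vector channel of the array of replicate 1 only. Its ratios were -0.51 and -0.37. Slc7a2, a cationic amino acid carrier known from macrophages, was read in the same channel of that array only, with ratios of -0.35 and 0.04, which differ in sign. Slc1a6, a glutamate carrier of Purkinje cells, was read in the vector channel of replicate 2 only, with -0.15 and -0.25. Among the other sensors of amino acids, Sesn3, a stress-induced sestrin, was at -0.83 and -0.73, while Sesn2, the leucine-binding sestrin, was at 0.30 and 0.29. Fnip1, a partner of folliculin, was at -0.69 and -0.74, whereas its relative Fnip2 was at 0.29 and 0.30. These genes were singled out after their values were seen, and no explanation was tested.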
